A study of Mus musculus with 122 samples.

Results

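The comparison described here is the induction of LCL, a chimeric protein, in mouse embryonic stem cells that kept their own CTCF, read as poly(A) RNA-seq. LCL carries the N and C terminal parts of CTCFL on either side of the zinc fingers of CTCF. Its members are the libraries labelled LCL U (untreated, 2 libraries) and LCL D (Dox, 2 libraries), 4 of the 38 RNA-seq libraries and of the 122 samples in the series, chosen by their labels and not by any measured value. The series set this line beside lines with inducible CTCFL, CTCF or the reverse chimera CLC (CTCF termini on the zinc fingers of CTCFL), each in 4 conditions for RNA-seq, and with ChIP-seq and Hi-C in some of the conditions. The question the comparison addresses is which genes follow the termini of CTCFL when they are brought to DNA by the zinc fingers of CTCF while CTCF is present.

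All of the groups derive from E14Tg2a embryonic stem cells of a 129/Ola, XY strain, with an auxin-inducible degron and eGFP on both Ctcf alleles and Tir1, the plant ubiquitin ligase subunit that acts on the degron, at Rosa26. The LCL transgene is a fusion of mouse cDNAs with FLAG at its N terminus and mRuby2 at its C terminus, and it was placed at the Tigre locus behind a doxycycline-responsive promoter. The cells grew without feeders in serum, LIF and the inhibitors of GSK3 and MEK known together as 2i. U cells received nothing, D cells received Dox at 1 µg/ml, I cells received the auxin IAA at 500 µM, which degrades CTCF, and ID cells received both. The labels give 24 h of treatment whereas the protocol gives 2 days. No line without a transgene was given Dox, so an effect of LCL cannot be told apart from an effect of Dox itself. The lines were selected clones, so a difference between lines cannot be told apart from a difference between clones. The RNA-seq library names of LCL and CLC carry 2i and those of CTCFL and CTCF do not. What sets these names apart is not explained, and it cannot be told apart from a difference between the lines. Nothing in the labels says whether replicates were separate cultures.

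CTCF is a zinc finger protein present in all cell types that binds sites across the genome and halts cohesin as it extrudes chromatin loops. CTCFL, also called BORIS, is its paralog of pre-meiotic male germ cells, with near-identical DNA contacts but unrelated termini, and it is switched on in many cancers. The N terminus of CTCF is the part that engages cohesin. Embryonic stem cells normally transcribe little Ctcfl.

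Values are normalized counts (reads per gene divided by a size factor for each library). A gene was called where its log2 fold change on the log2(value + 1) scale was beyond 1 in either direction and its adjusted p from limma was below 0.01, and genes are described as passing the 5% test where the adjusted p was below 0.05 at any fold change. The 4 libraries held 26435259 to 48070042 recovered reads, with 20753 to 22312 genes detected. Replicates correlated across genes at r = 0.987 for LCL U and 0.992 for LCL D on the log2 scale, and LCL U replicate 1 was the shallowest of the 4. On the first principal component of the 8 libraries of this line, which held 41.2% of the variance, U (−48.3 and −40.1) and D (−36.6 and −37.0) lay on one side and I and ID on the other.

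Dox raised the transgene in both D libraries. Ctcfl (chr2:173093609-173119525, minus strand), which counts reads of the endogenous gene and of the CTCFL parts of the transgene together, measured 36.5 and 27.2 in U and 384 and 416 in D. The groups were far apart and the replicates close, a 12.3-fold rise (log2 3.62, SE 0.22, adjusted p = 4.12e-09). Ctcf (chr8:105636568-105682922, plus strand), whose zinc finger sequence the transgene shares, measured 9309 and 7829 in U and 6705 and 7102 in D. All D values lay below the U values, with a difference of −0.31 (SE 0.09, adjusted p = 0.0211), so the transgene was not visible as a rise in Ctcf. In the line with inducible CTCF, Ctcf did not rise on Dox either (log2 −0.33).

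Stem cell genes stayed high on Dox. Nanog, a core pluripotency factor, measured 40292 and 42828 in U and 47933 and 48712 in D, and Pou5f1, the gene of OCT4, measured 28845 and 30441 in U and 28458 and 28275 in D. Neither passed the 5% test, which 11% of all genes passed as higher in D. None of the 7 stem cell markers was called and 2 passed the 5% test as higher in D (0 without D replicate 1, D replicate 2 or U replicate 1, and 1 without U replicate 2). The markers summed to 187606 and 192590 in U and to 209813 and 210184 in D. Of other cell types, the 7 fibroblast markers summed to 371.7 and 403.8 in U and to 722.2 and 868.9 in D, most of it from Col1a1 and Pdgfrb, with Lum at 0 in all 4 libraries. Col1a1, a fibrillar collagen gene, was called (log2 1.23), though its adjusted p was 0.0163 without D replicate 2. Primitive endoderm markers summed to 615.7 and 647.1 in U and to 951.1 and 859.9 in D, trophoblast markers to 405.9 and 465.5 in U and to 588.1 and 604.7 in D, and neural progenitor markers to 2865 and 2328 in U and to 1752 and 1745 in D, with Fabp7 at 0. Male germ cell markers summed to 19903 and 18352 in U and to 20549 and 20425 in D. Apart from Col1a1 no marker of these cell types was called, and the part of other cell types in the results was not tested.

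Dox in the LCL line, with CTCF present, called 291 of the 15274 genes tested (1.91%). Of these, 153 were higher in D (1% of genes tested) and 138 were lower (0.903%). The balance of the 2 directions rested on single libraries, with 82 risen and 132 fallen without D replicate 1, 63 and 98 without D replicate 2, 73 and 80 without U replicate 1 and 203 and 157 without U replicate 2. Risen genes were mostly low before induction, with a median mean of 60.8 in U and 161.4 in D, whereas fallen genes had medians of 479.5 and 187.8. The rise exceeded 2 on the log2 scale in 22 genes and the fall did in 12. Protein-coding genes made up 144 of the 152 risen and 115 of the 132 fallen genes with an annotated biotype. Over all genes tested, the log2 fold changes had a median of 0.02. The count fell to 153 without LCL U replicate 1 and to 161 without LCL D replicate 2, and 131 and 138 of those, respectively, were among the 291.

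**Figure D1:**
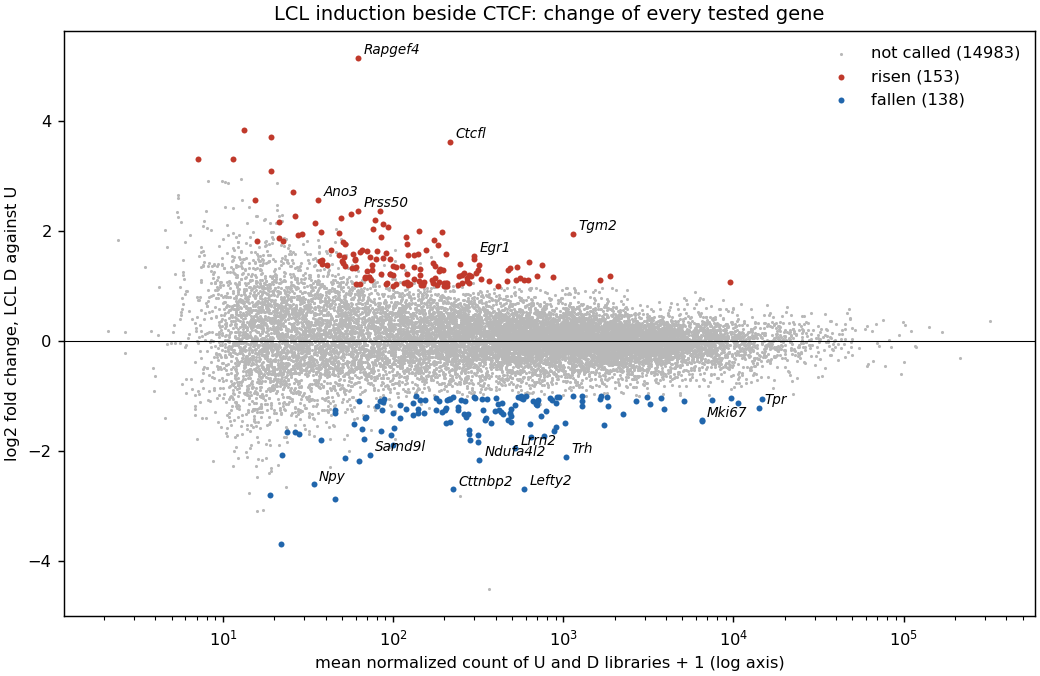
Log2 fold change of LCL D over LCL U (vertical axis) against the mean normalized count of the 4 libraries plus 1 (horizontal log axis), one point per gene tested, with the 153 risen genes in red, the 138 fallen genes in blue and a selection labeled. Rapgef4 stands highest at 5.16 and Ctcfl is at 3.62, while most genes lie near 0.

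The largest rises included genes of signaling and of the cell surface. Rapgef4 (chr2:71981240-72257474), which encodes EPAC2, a cAMP-activated exchange factor for the small GTPase RAP1, measured 1.14 and 4.32 in U and 108 and 132 in D. It was almost silent before induction and rose by 5.16 on the log2 scale (SE 0.57, adjusted p = 4.2e-06), a size that depends on the few reads in U and on the added 1, since it was 4.50 without U replicate 1 and 5.81 without U replicate 2. Vnn1, a membrane-bound pantetheinase, measured 16.0 and 40.8 in U and 148 and 126 in D (log2 2.37, SE 0.33, adjusted p = 4.15e-05). Tgm2, the gene of transglutaminase 2, which crosslinks proteins, measured 434 and 502 in U and 1694 and 1933 in D, and this 3.87-fold rise (log2 1.95, SE 0.13, adjusted p = 8.61e-09) was the most significant one on the risen side after Ctcfl. In all of these genes the D libraries were close to one another and far above both U libraries.

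Among the other leading risers, Prss50, a testis serine protease gene, measured 20.5 and 17.9 in U and 99.88 and 107 in D (log2 2.37). Tgfa, a ligand of the EGF receptor, measured 14.8 and 21.0 in U and 101 and 83.9 in D (log2 2.32), and Egfr, the receptor itself, was also called (log2 1.84). Cpz, a carboxypeptidase that binds WNT proteins, measured 13.7 and 19.14 in U and 76.0 and 85.3 in D (log2 2.25). Ano3, a member of the anoctamin family of membrane proteins, measured 12.5 and 6.79 in U and 70.1 and 51.3 in D (log2 2.57), and Tagln, the actin-binding transgelin, measured 21.7 and 32.7 in U and 137 and 117 in D (log2 2.21). The calls of Prss50, Tgfa, Cpz, Ano3 and Tagln were lost without single libraries, since the adjusted p of Prss50 was 0.0108 without D replicate 1 and 0.0175 without D replicate 2, that of Tgfa was 0.0191 without D replicate 1, that of Cpz was 0.0141 without D replicate 2, that of Tagln was 0.0629, 0.042 and 0.0472 without D replicate 1, D replicate 2 and U replicate 1, and that of Ano3 was between 0.028 and 0.133 without each of the 4.

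Several genes went from near 0 to a low level. Vipr1, a receptor for vasoactive intestinal peptide, measured 3.42 and 0.62 in U and 37.3 and 31.2 in D, and Doc2b, a calcium sensor of vesicle release, measured 5.70 and 1.23 in U and 27.6 and 37.5 in D. Cox6a2, the muscle form of a cytochrome c oxidase subunit, measured 0 and 1.85 in U and 26.1 and 20.8 in D, and Eef1a2, a translation elongation factor of muscle and neurons, measured 0 and 0.62 in U and 14.9 and 9.02 in D. DESeq2 on recovered reads did not call Vipr1, Cox6a2 and Eef1a2. The values of all genes in this group rest on few reads in U, so no fold is given for Cox6a2 and Eef1a2. Without single libraries the adjusted p reached 0.0139 for Vipr1 (D replicate 1), 0.0208 for Doc2b (D replicate 2), 0.0545 for Cox6a2 (D replicate 1; also above the threshold without D replicate 2 and U replicate 1) and 0.111 for Eef1a2 (likewise).

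The largest falls included genes of secreted and neural proteins. Lefty2 (chr1:180893108-180899103), a secreted inhibitor and target of Nodal signaling, measured 993 and 1032 in U and 154 and 158 in D, a fall of 2.69 on the log2 scale (SE 0.14, adjusted p = 3.07e-10). It was the most significant change in the comparison. Cttnbp2, a regulator of the actin cytoskeleton in neurons, measured 396 and 381 in U and 55.2 and 63.1 in D (log2 −2.70, SE 0.26). Trh, the gene of thyrotropin-releasing hormone, measured 1662 and 1699 in U and 412 and 365 in D (log2 −2.11, SE 0.13). In these genes the U libraries agreed closely and every D value lay far below them.

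Ndufa4l2, a hypoxia-induced mitochondrial protein gene, measured 509 and 529 in U and 105 and 127 in D (log2 −2.16), and Lrrn2, a leucine-rich repeat membrane protein gene, measured 808 and 843 in U and 242 and 186 in D (log2 −1.95). Rimbp2, a presynaptic scaffold gene, measured 91.2 and 112 in U and 15.7 and 29.1 in D (log2 −2.19). Npy, the neuropeptide Y gene, measured 59.3 and 51.3 in U and 17.9 and 3.47 in D, and Samd9l, an interferon-inducible gene, measured 109 and 121 in U and 36.5 and 19.4 in D. Both of the latter pairs were apart between the groups but uneven within D. Without D replicate 2 the adjusted p of Npy was 0.0286 and that of Samd9l 0.0408, and both also missed the threshold without U replicate 1 (0.0186 and 0.0171), as Samd9l did without U replicate 2 (0.0145).

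**Figure D2:**
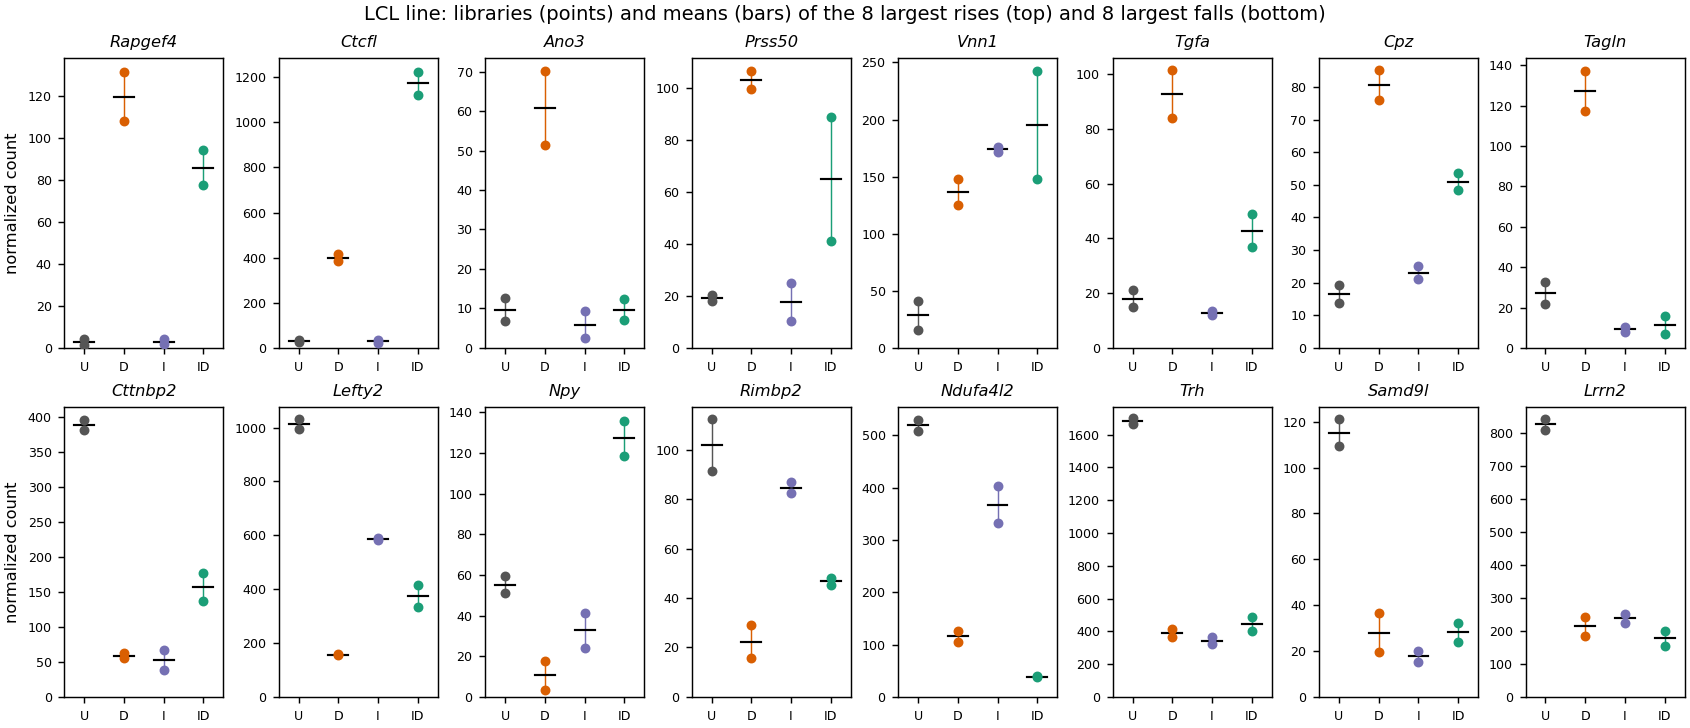
Normalized counts (linear axes from 0) of the genes with the 8 largest rises (top row) and the 8 largest falls (bottom row), 1 panel per gene, with a point for each of the 2 libraries per condition of the LCL line and a bar for their mean. The genes were chosen for their change between U and D, as for Lefty2 with 993 and 1032 in U against 154 and 158 in D, while I and ID take different places from gene to gene.

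The growth regulator Myc, a transcription factor, measured 460 and 529 in U and 144 and 130 in D (log2 −1.84, SE 0.23, adjusted p = 1.65e-05). Mki67, a marker of cycling cells, measured 11523 and 7616 in U and 3766 and 3089 in D (log2 −1.46), with a wide gap between the U libraries. It was the one called member of the 34 replication and cell cycle genes tested. In the 5% test 5 of the 34 fell and 2 rose, where 10.7% of all genes fell and 11% rose. The MYC network list had Myc as its one called member among 13 genes, and Mycn, its close relative, was higher in D (2196 and 2214 against 1692 and 1813, log2 0.33). Without U replicate 2 the fallen replication genes numbered 7, and without D replicate 1 they numbered 3.

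Glycolysis and hypoxia genes were lower in D. Of 25 tested, 17 fell and none rose in the 5% test, where 10.7% of all genes fell (21.8% passed in either direction), and the list's median log2 fold change was −0.44. Bnip3, a mitophagy receptor induced by hypoxia, was the one called member, at 1308 and 1389 in U and 467 and 443 in D (log2 −1.56, SE 0.13, adjusted p = 1.11e-07). The smaller changes were in enzymes of the pathway: Pfkp, a phosphofructokinase, measured 12463 and 12668 in U and 6690 and 7096 in D (log2 −0.87), and Ldha, lactate dehydrogenase, measured 41046 and 39372 in U and 25072 and 27001 in D (log2 −0.63). Tpi1 (−0.60), Aldoa (−0.46), Pkm (−0.45), Pgk1 (−0.44) and Eno1 (−0.37), which carry out later steps, also fell. On Dox, 18 members fell in the CTCFL line (22.1% of all genes did), 12 in the CLC line (11.6%) and 17 in the CTCF line (10.1%). Without D replicate 1, 11 members of the list fell in LCL.

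Of 11 genes of DNA methylation enzymes, 5 fell and none rose in the 5% test, where 10.7% of all genes fell, and none was called. Dnmt3l, the cofactor of the de novo methyltransferases, measured 2582 and 2776 in U and 1515 and 1581 in D (log2 −0.79), Dnmt3b measured 1364 and 1198 in U and 731 and 807 in D (log2 −0.73), and Dnmt1, the maintenance enzyme, measured 14005 and 12788 in U and 8610 and 9355 in D (log2 −0.58). Tet2, which oxidizes methylcytosine, fell by 0.66 and Uhrf1, which guides Dnmt1, by 0.35. On Dox in the CTCF line 5 of the 11 fell and 1 rose in the 5% test. In the CLC line 3 fell and 1 rose, and in the CTCFL line 2 fell and 4 rose. Of all genes, 10.1% fell in CTCF, 11.6% in CLC and 22.1% in CTCFL.

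Among cohesin genes, 7 of 17 fell and 1 rose in the 5% test, with none called. Nipbl, the cohesin loader, measured 5257 and 3866 in U and 2802 and 2497 in D (log2 −0.77), Smc1a measured 7690 and 6089 in U and 4232 and 4135 in D (log2 −0.71) and Smc3 measured 15585 and 11614 in U and 8900 and 8716 in D (log2 −0.61). Rad21, the kleisin that closes the ring, did not pass (log2 −0.21, adjusted p = 0.0928). The 7 genes were also higher in U replicate 1 than in U replicate 2, and the number that fell was 4 without D replicate 1, without D replicate 2 or without U replicate 1, and 11 without U replicate 2. Long transcripts as a whole moved the same way: among the 3742 genes with transcripts up to 1747 bases the median log2 fold change was 0.07, and among the 3740 with transcripts of 4431 bases or more it was −0.07. In the same groups the log2 difference of U replicate 1 over U replicate 2 had medians of −0.05 and 0.06, and its part in these results was not tested. With each library centered within 20 bins of transcript length, an alternative chosen after seeing the data, 6 cohesin genes fell. On Dox in the CTCF line 9 of the 17 fell and 0 rose in the 5% test. In the CLC line 4 fell and 0 rose, and in the CTCFL line 2 fell and 5 rose. Of all genes, 10.7% fell in LCL, 10.1% in CTCF, 11.6% in CLC and 22.1% in CTCFL.

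Small nucleolar RNA host genes and centrosomal genes were noticed among the fallen genes and counted by symbol after their values were seen, so the counts are a description. Snhg5 measured 1531 and 1126 in U and 433 and 415 in D (log2 −1.63), and 6 of 14 Snhg genes tested were called as fallen (Snhg1, Snhg4, Snhg5, Snhg11, Snhg12 and Snhg15), with a median of −0.97 over the 14. These are spliced noncoding RNAs whose introns hold small nucleolar RNAs. In the CTCFL, CLC and CTCF lines the medians of the same 14 genes on Dox were −0.03, 0.25 and 0.22. Of 32 Cep genes, which build the centrosome and its satellites, 3 were called as fallen (Cep126, Cep250 and Cep290). In the 5% test 19 fell, where 10.7% of all genes did. Their median was −0.45 in LCL and −0.04, −0.22 and −0.23 in the CTCFL, CLC and CTCF lines. Ribosomal protein genes, also counted by symbol afterwards, had 20 of 72 rise and 1 fall, where 11% of all genes rose. Their median was 0.15 in LCL and 0.05, 0.47 and 0.63 in the CTCFL, CLC and CTCF lines.

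Among germline genes more rose than fell. Of 34 meiosis and germline defense genes tested, 12 rose and 3 fell in the 5% test, where 11% of all genes rose, and 2 were called as risen; 19 passed in neither direction and the median was 0.12. Mael, a piRNA pathway gene that restrains transposons, measured 298 and 366 in U and 751 and 682 in D (log2 1.12, SE 0.15, adjusted p = 3.54e-05), although its log2 fold change without U replicate 1 was 0.97. Dpep3, a testis dipeptidase gene, measured 36.5 and 26.6 in U and 129 and 153 in D (log2 2.14, adjusted p = 0.00108). Tdrd1 (log2 0.95), Ddx4 (0.75), Piwil2 (0.60) and Tex19.1 (0.60), other genes of the piRNA pathway and its germline setting, rose to a smaller extent. The rise was seen in 4 genes without D replicate 2, and Dpep3 had an adjusted p of 0.0198, 0.0454 and 0.0124 without D replicate 1, D replicate 2 and U replicate 2. Stag3 (−0.36), Syce1 (−0.37) and Majin (−0.77) fell, and the number that fell was 0 without D replicate 1, D replicate 2 or U replicate 1.

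The genes that CTCFL is known to switch on in testis and cancer gave a mixed picture in LCL D. Prss50 was the one called member of 11 tested. Steap1, a metalloreductase gene, measured 38.8 and 59.3 in U and 168 and 139 in D, and it passed the 5% test without being called (log2 1.65, adjusted p = 0.0126). The adjusted p of Steap1 was 0.101, 0.0568 and 0.139 without D replicate 1, D replicate 2 and U replicate 1, while edgeR and DESeq2 on recovered reads called it. Stra8, the gatekeeper of meiotic entry, did not pass the 5% test (log2 0.03, adjusted p = 0.88), nor did Gal3st1, a sulfotransferase gene of the testis (0.88, adjusted p = 0.276), or the Notch ligand gene Dll1 (0.17, adjusted p = 0.83). Of the 5 genes that the study itself discusses for the chimeras 3 were called and 4 rose in the 5% test, and since the study drew that list from these samples it is not independent evidence of the direction. Gadd45g, of the growth arrest and DNA damage family, measured 73.0 and 65.5 in U and 57.4 and 40.2 in D (log2 −0.52, adjusted p = 0.197).

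Imprinted genes at the Igf2-H19 end of chromosome 7, a domain whose enhancers CTCF partitions, included 6 of 13 tested that rose in the 5% test. None fell, and the median was 0.55. Of all genes, 11% rose and 10.7% fell. On Dox in the CTCFL, CLC and CTCF lines the medians of these 13 genes were 0.19, 0.41 and 0.35. Igf2, a fetal growth factor, measured 181 and 171 in U and 509 and 416 in D (log2 1.38, SE 0.17, adjusted p = 1.41e-05). Cdkn1c, a cell cycle inhibitor, measured 170 and 207 in U and 381 and 307 in D (log2 0.86), and Phlda2, a placental growth regulator, measured 779 and 1048 in U and 1351 and 1293 in D (log2 0.55). The U and D libraries were separate in each. The shares of all genes just given also stand beside the counts with all libraries that follow. Imprinted genes elsewhere gave 3 risen and 4 fallen of 26, but 1 and 2 without D replicate 1, D replicate 2 or U replicate 1, and 6 and 4 with centering by transcript length. Hox genes, which lie in clusters divided by CTCF sites, had 5 of 19 rise and none fall, with Hoxa7 called (62.7 and 87.1 against 149 and 161, log2 1.06), though 1 rose without D replicate 2 or without U replicate 1, and 3 without D replicate 1. The adjusted p of Hoxa7 itself missed the threshold without D replicate 1, D replicate 2 or U replicate 1 (0.0443, 0.0796 and 0.102).

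Signaling targets moved in both directions. Of Notch genes, 7 of 14 rose and 2 fell in the 5% test, where 11% of all genes rose and 10.7% fell. Their median was 0.45 in LCL and 0.62, −0.02 and 0.09 on Dox in the CTCFL, CLC and CTCF lines. Hes1, a direct target, measured 1335 and 1357 in U and 2190 and 2370 in D (log2 0.76). The receptor gene Notch4 measured 455 and 419 in U and 124 and 125 in D (log2 −1.80, SE 0.21, adjusted p = 7.72e-06). Hey1, another target, was called at 30.8 and 59.9 in U and 93.2 and 102 in D (log2 1.16), and the call was lost without U replicate 1 (adjusted p = 0.102), D replicate 1 (0.0234) or D replicate 2 (0.0484). The number of Notch genes that rose was 3, 2 and 3 without D replicate 1, D replicate 2 and U replicate 1.

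Egr1, an immediate early gene downstream of MAPK, measured 140 and 162 in U and 448 and 436 in D (log2 1.55, SE 0.25, adjusted p = 0.000152). Among the 22 genes of its list 4 rose (2 without U replicate 1) and 1, Myc, fell. Of WNT targets, Nkd1, a feedback inhibitor, was called as risen (27.4 and 23.5 against 62.6 and 81.1, log2 1.46), with an adjusted p of 0.0105, 0.0558 and 0.012 without D replicate 1, D replicate 2 and U replicate 2, and Notum, a secreted enzyme that inactivates WNT proteins, was called as fallen (424 and 599 against 171 and 209, log2 −1.41). Id4, an inhibitor of helix-loop-helix factors and a BMP target, fell from 309 and 290 to 99.88 and 111 (log2 −1.498). Beside Lefty2, no other Nodal and TGF-beta gene of the 19 tested was called.

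The remaining lists held few called genes. Antigen presentation contributed Tap1, the peptide transporter (74.1 and 68.5 in U, 161 and 175 in D, log2 1.22), of 15 interferon response genes, and H2-DMa beside it on chromosome 17 (45.6 and 74.1 in U, 114 and 130 in D, log2 1.05). Without any 1 library the adjusted p of Tap1 was between 0.0118 and 0.0277, and for H2-DMa it was 0.024, 0.0667 and 0.106 without D replicate 1, D replicate 2 and U replicate 1. Heat shock chaperones gave 4 risen and 4 fallen of 14, the integrated stress and unfolded protein response 8 and 5 of 22 and p53 targets 6 and 5 of 24. Sterol synthesis gave 3 and 6 of 16, naive pluripotency factors 6 and 3 of 19 and regulators of the primed state 4 and 2 of 18. All of these counts are from the 5% test, where 11% of all genes rose and 10.7% fell. Leaving out 1 library at a time, the risen and fallen genes numbered 2 to 4 and 2 to 5 for heat shock chaperones, 4 to 7 and 2 to 4 for the stress response, 5 to 6 and 1 to 3 for p53 targets, 0 to 2 and 4 to 5 for sterol synthesis, 1 to 5 and 0 to 3 for naive pluripotency and 0 to 2 and 2 to 3 for the primed state. The lowest of these counts came without D replicate 1, D replicate 2 or U replicate 1. No gene of the stress response, p53, sterol and pluripotency lists was called. Of the mitochondrial mRNAs 1 of 9 rose, but 4 did without D replicate 2 and 0 without D replicate 1 or U replicate 1. Of the 8 clustered protocadherin genes tested 1, Pcdhga12, was called as fallen. Only 1 of 20 two-cell stage genes was expressed highly enough to be tested.

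**Figure D3:**
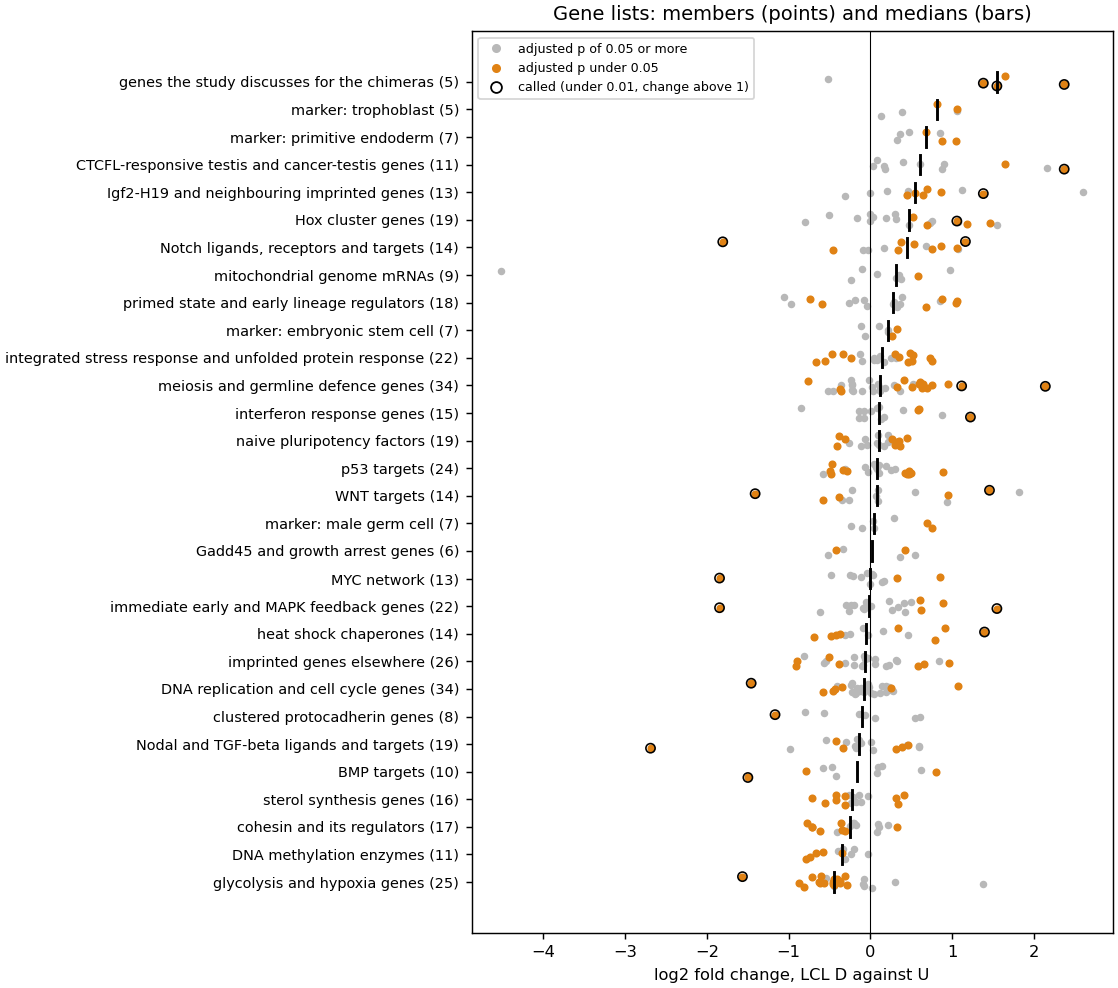
Log2 fold changes of LCL D over U (horizontal axis) for the members of each gene list with at least 5 genes tested, one point per member tested (their number in parentheses), with an upright bar for the list's median; members passing the 5% test are orange and called members are ringed. The glycolysis and hypoxia list at the bottom has the lowest median of the lists drawn, −0.44, with 17 of 25 members orange and below 0.

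Some called genes lay next to each other. Within 500000 bases, Doc2b, Rph3al and 1700016K19Rik on chromosome 11, Nuggc, Scara5 and Clu on chromosome 14, and H2-DMa and Tap1 on chromosome 17 were called as risen together, while Ncoa6, Myh7b and Cep250 on chromosome 2 and Lrrn2 and Sox13 on chromosome 1 were called as fallen together. Reads that overlap a neighbor cannot be assigned with certainty where the counting setting for strand is not given in the sources used here.

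FLAG ChIP-seq of the same line on Dox placed LCL itself at many of these promoters. Sites present in both LCL D replicates numbered 27579, and a site lay within 3 kb of an annotated start site for 82 of 152 risen genes (53.9%, 95% Wilson interval 46.02 to 61.7%), for 56 of 132 fallen genes (42.4%, interval 34.3 to 50.95%) and for 6104 of the 14963 genes tested with a start site (40.8%). The share of the fallen genes was thus near that of all genes, and that of the risen genes was above it. Within 1 kb the shares were 41.4% of risen, 23.5% of fallen and 27.5% of all genes. Most of these promoters were also sites of the other proteins. CTCF D sites lay at 50.0% of risen, 37.9% of fallen and 39.4% of all promoters, and CTCFL D sites at 51.97%, 43.2% and 43.9%. Promoters with a site of LCL alone numbered 5 among the risen and 5 among the fallen genes, and 70 risen and 76 fallen genes had no LCL site. Read the other way, 1.34% of genes with a promoter site rose and 0.917% fell, against 0.790% and 0.858% of those without one. The intervals cover counting error only.

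Matches to the CTCF motif found anywhere within the strongest promoter sites are shown, and they need not lie at the summit of the site. Of the 4 risen and 4 fallen genes whose promoter site had the highest −log10 q, the sites of 5 held the core of the CTCF motif, written as CC, any 3 bases, AG, any 2 bases and GGC, and searched on both strands of the whole site, and those sequences follow, read from the GRCm38 genome in the strand of the motif with its core in capitals.
Tgm2 (chr2:158146480-158146503, minus strand, between genes just upstream of the start of Tgm2): ctgtgtCCAGCAGGGGGCgctccc
Coro2a (chr4:46602244-46602267, plus strand, between genes just upstream of the start of Coro2a): ctgctgCCATTAGGGGGCgctgcg
H2-DMa (chr17:34135413-34135436, plus strand, in an exon and UTR of H2-DMa): gaccttCCACCAGGGGGCggaggt
Ttn (chr2:76980412-76980435, minus strand, in an intron of Ttn): ctttgaCCACTAGGGGGCattcct
Mir17hg (chr14:115042220-115042243, minus strand, between genes upstream of Mir17hg): gcgcggCCGCCAGGGGGCggcagg

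The site near Tgm2 had a −log10 q of 58.3 and 78.4 in the LCL D replicates and that near Coro2a 38.98 and 67.6, beside which Coro2a, a coronin that binds actin, rose from 93.5 and 122 in U to 247 and 285 in D (log2 1.30). The sites near the fallen genes Ttn (45.2 and 47.5), Mir17hg (40.5 and 43.3) and Tpr (52.3 and 57.4) were of similar strength, and Tpr, a nuclear pore gene, fell from 22425 and 17232 to 8555 and 8347 (log2 −1.22). All 8 promoters also held a CTCF D site and a CTCFL D site within 3 kb of a start site. Overlap of those sites with the LCL site was not tested. The printed cores of Ttn and H2-DMa lay 6 and 70 bases from the summit. Those of Tgm2, Coro2a and Mir17hg lay 186, 189 and 229 bases from it, outside the window of the shares that follow. No share was taken over whole sites, so how often a whole site holds the core was not measured. Within 100 bases of the summit the core was found in 20 of 82 risen-gene sites (24.4%), 14 of 56 fallen-gene sites (25%), 26.7% of all LCL promoter sites and 29.8% of all LCL sites, whereas 8.61% of 300-base RefSeq promoters held it. The calls of H2-DMa, Ttn and Mir17hg did not hold without single libraries; the adjusted p of Ttn reached 0.161 without U replicate 1, and that of Mir17hg was between 0.0369 and 0.095 without each of the 4.

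**Figure D4:**
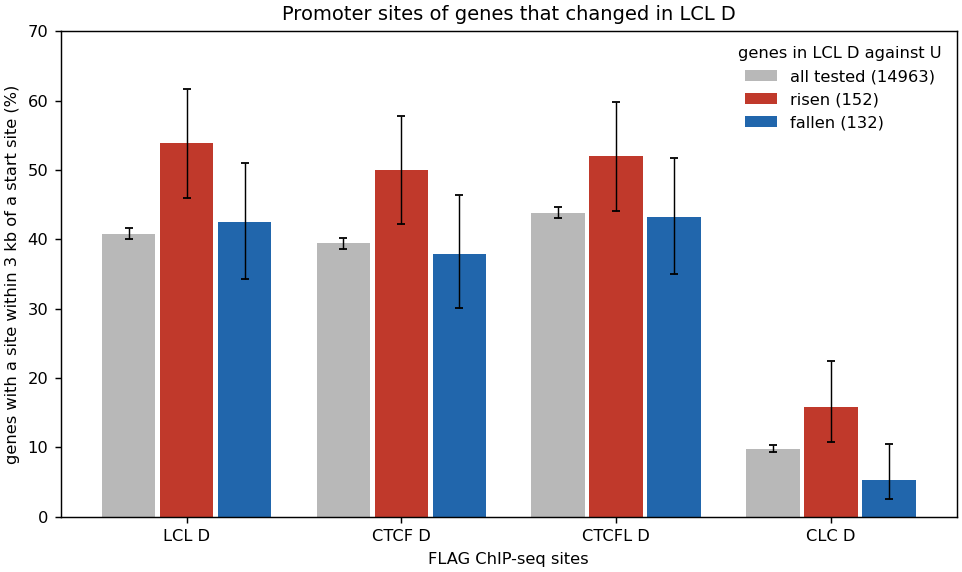
Share of genes (percent) with a FLAG ChIP-seq site of LCL, CTCF, CTCFL or CLC on Dox within 3 kb of a start site, as bars for all genes tested and for risen and fallen genes, with 95% Wilson intervals as error bars. LCL sites lie at 53.9% of risen, 42.4% of fallen and 40.8% of all promoters, and CLC sites at 15.8%, 5.30% and 9.82%.

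The response to LCL was then set beside that of the other lines on Dox, whose calls came from a fit of all 38 libraries, while the 153 and 138 genes of LCL came from the fit of its own 8. In the fit of all 38, LCL itself called 436 genes (280 higher and 156 lower), so the 291 cannot be ranked against the counts of the other lines. By the same thresholds CTCFL induction called 929 genes (6.08%; 481 higher, 3.15%, and 448 lower, 2.93%), CLC induction 311 (2.04%; 226 higher, 1.48%, and 85 lower, 0.557%) and CTCF induction 68 (0.445%; 39 higher, 0.255%, and 29 lower, 0.19%). Of the 153 genes that rose with LCL, 38 were also called as risen with CTCFL (24.8% of the LCL list and 7.90% of the CTCFL list), 34 with CLC (22.2% and 15.0%) and 6 with CTCF (3.92% and 15.4%), and none was called as fallen in any of the 3 lines. Genes called in LCL alone were 89 of the risen (58.2%) and 105 of the fallen (76.1%), a count of calls and not a test of a difference. With LCL also taken from the fit of all 38, the risen genes shared with CTCFL, CLC and CTCF were 70 of 280 (25%), 56 (20%) and 10 (3.57%), 6 were called as fallen in CTCFL and 1 in CLC, and those called in LCL alone were 170 of the risen (60.7%) and 120 of the 156 fallen (76.9%). Rapgef4 was the one gene called as risen in all 4 lines, with log2 fold changes of 5.16, 2.74, 4.75 and 3.38 in LCL, CTCFL, CLC and CTCF. The genes called as risen in LCL, CTCFL and CLC numbered 11 and included Ctcfl, Prss50, Vipr1, Scara5 and Atxn1.

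Of the 138 genes that fell with LCL in the fit of its own libraries, 14 were also called as fallen with CTCFL (10.1%, and 3.13% of that list), 21 with CLC (15.2% and 24.7%) and 7 with CTCF (5.07% and 24.1%), against 12, 24 and 10 of the 156 in the fit of all 38. In CTCFL 7 of the 138 were called in the opposite direction, Clk4, Cttnbp2, Foxn4, Itga9, Notum, Ntn1 and Vstm5. Vstm5, a membrane protein gene of neurons, measured 103 and 103 in LCL U and 25.3 and 33.3 in LCL D (log2 −1.79), and its log2 fold change in CTCFL was 2.01. Notum had −1.41 in LCL, −1.25 in CLC and 2.00 in CTCFL. Myc had −1.84 in LCL, −2.23 in CLC, −1.36 in CTCF and 0.85 in CTCFL, and Lefty2 had −2.69, −1.91, −1.34 and −0.51 in that order. Over the 138 genes the medians were −0.64 in CLC, −0.33 in CTCF and −0.11 in CTCFL, and over the 153 risen genes they were 0.69, 0.34 and 0.51.

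**Figure D5:**
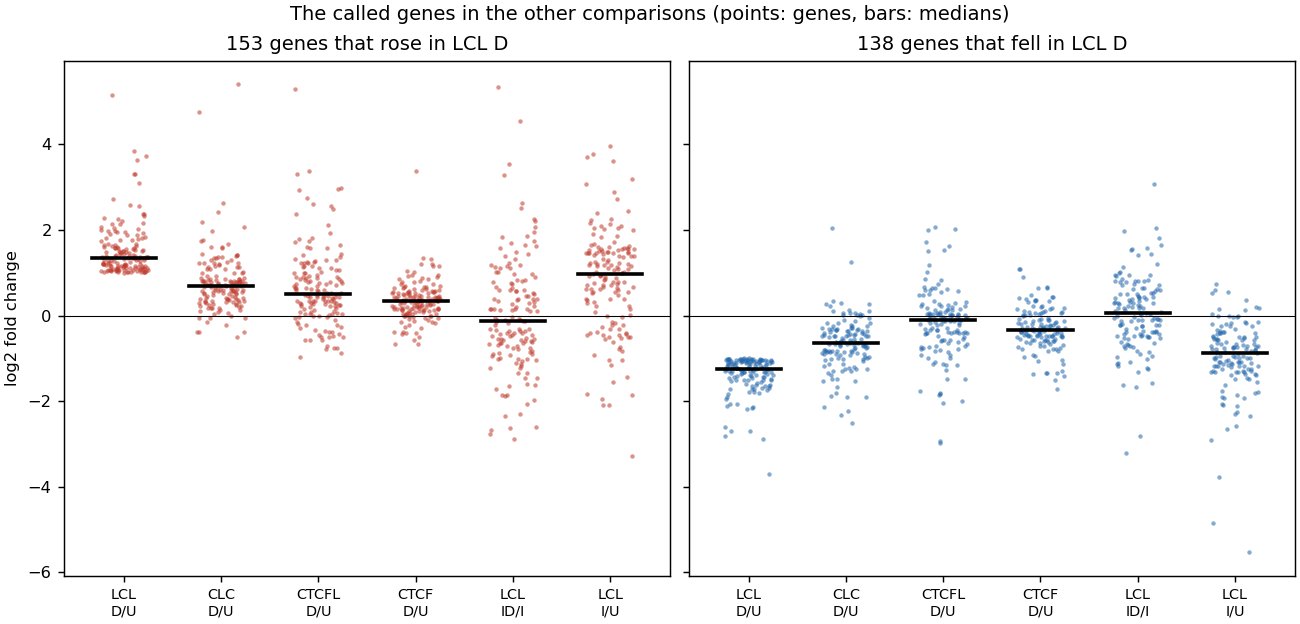
Log2 fold changes of the 153 risen (left) and 138 fallen (right) genes in LCL D over U and in 5 other comparisons, one point per gene, with a bar for the median. Risen genes have medians of 0.69, 0.51 and 0.34 in the CLC, CTCFL and CTCF lines and −0.12 in LCL ID over I, and fallen genes −0.64, −0.11, −0.33 and 0.06; I over U shares the U libraries.

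Testing the difference between lines directly gave 796 genes for LCL against CTCFL (5.21%; 451 higher in LCL, 2.95%, and 345 lower, 2.26%), 171 against CTCF (1.12%; 105 higher, 0.687%, and 66 lower, 0.432%) and 58 against CLC (0.38%; 22 higher, 0.144%, and 36 lower, 0.236%). Tgm2 differed from all 3, by 1.98 from CTCFL (SE 0.13), 1.36 from CLC (SE 0.14) and 1.42 from CTCF (SE 0.13), with adjusted p of 5.49e-13, 8.82e-07 and 2.35e-08. Myc (−2.70, SE 0.33) and Lefty2 (−2.18, SE 0.28) differed from CTCFL but were not called against CLC (0.39 and −0.78). Trh, which fell in LCL and CLC (−1.30), differed from CTCFL by −2.72 and from CTCF by −2.33. Gadd45g differed in the negative direction from CTCFL (−2.23) and CLC (−2.79), where it rose by 1.72 and 2.27. Apart from Gadd45g, the genes named here had been selected for a change in LCL, and such a selection favors a difference from the other lines. CTCFL and CTCF also belong to the other set of library names, which cannot be told apart from the lines. The count against CLC is not firm: it was 33 without U replicate 1, D replicate 1 or D replicate 2, and on recovered reads edgeR called 6 as higher and 67 as lower in LCL.

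Without CTCF the same transgene called 1296 genes (ID over I, 8.49%; 617 higher and 679 lower), and the test of whether the effect of Dox differs between the presence and absence of CTCF called 1589 (10.4%; 685 higher without CTCF, 4.48%, and 904 lower, 5.92%). Of the genes risen beside CTCF, 27 of 153 were called as risen in ID over I as well (4.04% of all genes were) and 24 as fallen (4.45%). Of the fallen genes, 12 of 138 were called as fallen and 14 as risen. Ctcfl rose further, to 1120 and 1225 in ID from 33.8 and 23.5 in I. Its RNA level in ID was above that in D. In these differences the absence of CTCF therefore cannot be told apart from a higher transgene RNA level. By FLAG western blot the paper reports comparable transgene protein in D and ID. Igf2 rose in both settings, by 1.38 beside CTCF and by 2.51 without it (517 and 620 in ID against 108 and 90.6 in I), a difference of 1.13 (SE 0.24, adjusted p = 0.0012). Rapgef4 measured 94.2 and 77.7 in ID against 1.75 and 4.04 in I.

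Other genes responded to Dox in different ways with and without CTCF. Tgm2 measured 362 and 318 in I and 344 and 390 in ID, with no rise like that beside CTCF (difference −1.84, SE 0.19, adjusted p = 4.14e-07). Mael was already high in I, at 847 and 699, and lower in ID, at 131 and 120, opposite to its rise in D (difference −3.73, SE 0.22). The list of meiosis and germline defense genes, with 12 risen and 3 fallen beside CTCF, had 3 risen and 29 fallen in ID over I in the 5% test, where 22.5% of all genes rose and 22.9% fell. Cttnbp2 measured 39.02 and 67.1 in I and 137 and 177 in ID, and Cd4, a T cell coreceptor gene, measured 35.4 and 34.6 in U, 10.4 and 10.4 in D and 293 and 323 in ID. Gadd45g rose by 2.69 without CTCF, a difference of 3.21 from its change beside CTCF (SE 0.39). I over U shares its U libraries with D over U, so its values are given side by side only: 71 of the 153 risen genes were called as risen and 57 of the 138 fallen genes as fallen in I over U, against 4.25% and 5.34% of all genes, and no relation was read from these counts.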

How the data were processed

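RNA was measured by poly(A) RNA-seq with directional libraries and protein binding by FLAG ChIP-seq. The authors aligned RNA reads to GRCm38/mm10 with STAR v2.6, and the deposited values are a signal, gene counts divided by a size factor per library; the submitters' processing notes also name HTSeq, Trim Galore 0.4.4, SAMtools 1.3 and Bowtie2. The deposited ChIP peaks, called with MACS per replicate, give −log10 q values, fold enrichment as a ratio and positions; sites are peaks present in both replicates. The strand setting of the counting is not given in the sources used here.

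Whole reads were recovered from the steps of the values: 100.0% of the values of up to 500 reads in every library lay within 0.1 of a whole read. Genes with a mean of at least 10 over the 8 LCL libraries were tested on log2(value + 1) with limma 3.58.1 (trended empirical Bayes, R 4.3.3) over U, I, D and ID together, with Benjamini-Hochberg adjustment over the 15274 genes. Other lines and differences between lines came from 1 fit of all 38 libraries. On recovered reads, edgeR 4.0.16 (quasi-likelihood) and DESeq2 1.42.0 were alternatives. In simulated data for D over U, over 15274 genes, limma called 80% of genes changed by 1.5 and 98% of those changed by 3 on the log2 scale, and 3 unchanged genes. Start sites and lengths are from GENCODE vM21, matched by symbol for 14963 of the 15274 genes.

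Genes named are Ctcfl and Ctcf, the 8 largest rises and falls among called genes with a mean of at least 50 and no clone-type symbol, up to 4 called members of each list, genes the study discusses, the 4 risen and 4 fallen genes with the strongest LCL promoter site, and the 4 largest called differences per line; any others were chosen after their values were seen. The comparison and the lists were chosen with earlier results of these data known. P-values measure the spread between libraries, which may be technical.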

Additional observations from a re-analysis of the deposited data

Results flagged for a closer look

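Tests of a difference between effects of Dox called 1589 genes for LCL beside CTCF against LCL without CTCF, 796 for LCL against CTCFL, 58 for LCL against CLC and 171 for LCL against CTCF (limma). The genes named from these tests were those called in LCL D over U with the largest estimates, so the sizes are a description. They are on the log2 scale, and those of Cox6a2, Eef1a2 and Vipr1 depend on the added 1, since these genes had few reads in LCL U.

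Against CTCFL, the effect in LCL was higher for Cox6a2 by 4.60 and lower for Npy (−4.14), Vstm5 (−3.80) and Cttnbp2 (−3.71). Against CLC it was higher for Eef1a2 by 3.70, Vipr1 by 2.34 and Vnn1 by 1.95, and lower for Gm12854 (−4.17), a clone-type symbol, which measured 95.8 and 64.2 in LCL U and 37.3 and 7.63 in LCL D. The adjusted p of Gm12854 in this test was 0.0803 without D replicate 2 and 0.0462 without U replicate 1, and those of Eef1a2, Vipr1 and Vnn1 also missed the threshold without single libraries. Against CTCF it was higher for Ctcfl by 4.19, Doc2b by 3.61, Cox6a2 by 3.36 and Vipr1 by 3.19. Against the absence of CTCF, the change of the effect was 4.73 for Cd4, 4.58 for Npy, 4.28 for Cttnbp2 and −6.52 for Cox6a2. Cox6a2 itself measured 0 and 1.85 in U and 26.1 and 20.8 in D. In I it was already at 28.54 and 22.65, and it was lower in ID, at 3.53 and 2.82.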

How the results depend on the processing

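Genes called in LCL D over U numbered 291, and 201 to 436 under the other settings of test, scale and filter at the same thresholds; the fit of all lines gave 280 risen and 156 fallen, edgeR 308 in all and DESeq2 311. At an adjusted p below 0.05 and any fold change they numbered 3323, and 6924 in ID over I. Leaving out 1 library gave 153 to 360 for D over U (161 without D replicate 2, 153 without U replicate 1), 1106 to 1271 for ID over I, 1244 to 1682 for the difference between the presence and absence of CTCF, 609 to 799 against CTCFL, 33 to 80 against CLC and 100 to 201 against CTCF (100 without D replicate 2); the lone library left in a group was assumed to vary like the other groups. Risen and fallen genes in D over U were 90 and 111 without the filter on low values. Of the 80 genes followed through these settings for D over U no call was reversed; other genes given with a direction were followed only through the counts of their lists. Against CLC, the U and D libraries of both lines alone gave 9 higher and 60 lower. The share of called promoters with an LCL site, 48.6%, was 33.1% within 1 kb, and with the peaks of 1 ChIP replicate alone it was 51.4% without replicate 2 and 55.3% without replicate 1. Centering within bins of transcript length, added after seeing the data, called 263. Without the filter on low values, 18 of 80 named genes lost their call and none changed sign. DESeq2 on recovered reads did not call Ano3, Cox6a2, Eef1a2, H2-DMa and Vipr1. With edgeR the calls of Gm12854, H2-DMa and the heat shock gene Hspa1a were lost.

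Replicate numbers did not pair the libraries: same-numbered deviations correlated at −0.016 to 0.074. With a replicate block the calls were 316 in D over U (165 risen, 151 fallen), 1323 in ID over I, 1652, 756, 44 and 120 in the differences above in that order. The causes were not tested. With 2 libraries per group, changes in genes of few reads were the least certain.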
